A study of Homo sapiens with 4 samples.

Results

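BIRC2, BIRC3, XIAP, CFLAR, TRAF1, TRAF2, BCL2A1 and BCL3 are survival genes that are known as targets or partners of NF-kB signalling. These 8 genes were taken by symbol from the 43622 genes of an RNA-seq table by a rule on names, with no threshold on their values. Earlier results of these data were known when they were chosen. All 8 passed the filter on low values, which asked for 0.1 TPM on average over the 12 libraries (TPM is the transcript count of a gene scaled by its length and by the library total), as did 19932 genes in all. NF-kB binding or activity was not analysed here, so the name says what the genes are known for and not what drove them in these cells.

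The cells were PC3, a human prostate cancer cell line in long use, and PC3-shp14ARF, the same line with a stable short hairpin RNA (shRNA) against p14ARF brought in by a retrovirus and selected with hygromycin. The 4 conditions were PC3 with DMSO (Ctrl), PC3 with 1 µM MLN4924 (MLN), PC3-shp14ARF with DMSO (shARF) and PC3-shp14ARF with 1 µM MLN4924 (Both), each for 3 days and each with 3 libraries. The series' design text gives 1 mM and the word knockout where the treatment protocol and the methods give 1 µM and an shRNA. MLN4924 (pevonedistat) blocks the enzyme that activates NEDD8, a ubiquitin-like protein that cullin-RING ubiquitin ligases need. No control shRNA is named for the PC3 cells without the hairpin, so the shRNA, the selection and the depletion cannot be told apart. Whether the 3 libraries of a condition came from separate cultures is not stated, and the p-values measure only the spread between these libraries.

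In resting cells, NF-kB dimers are held in the cytoplasm by IkB proteins. After a signal from a receptor of the TNF family, IkB is tagged by a cullin-RING ligase and degraded, and the freed dimers switch on genes that block cell death. The cIAPs and TRAF2 sit at the receptor itself, c-FLIP stops caspase-8 there, XIAP stops caspases downstream, and BFL-1, the product of BCL2A1, guards mitochondria. BCL3 is an unusual IkB-like protein that works in the nucleus with p50 and p52 homodimers.

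CDKN2A, the gene that encodes p14ARF, was read first as a check of the labels. Its level was 183 ± 6.49 TPM in Ctrl and 118 ± 16.4 in MLN, against 59.3 ± 1.47 in shARF and 47.5 ± 6.40 in Both (SD, n = 3), with no overlap between the libraries of the PC3 and PC3-shp14ARF lines. The row counts all transcripts of the gene and not the p14ARF transcript alone. The epithelial genes KRT8, KRT18 and EPCAM and the mesenchymal gene VIM were present in every library, while KLK3, a marker of luminal prostate cells, was listed at 0 in all 12. The summed level of these 4 genes was lower with MLN4924 in either line, at 569 to 645 TPM in MLN against 1131 to 1240 in Ctrl, and at 450.6 to 492 in Both against 1179 to 1318 in shARF. Its part in the responses to MLN4924 was not tested. Singly, KRT8 was not called in MLN vs Ctrl (log2 0.037, adjusted p = 0.746), while KRT18, EPCAM and VIM were lower. In Both vs shARF all 4 were lower. In shARF vs Ctrl, KRT8 (0.67, adjusted p = 0.0016), KRT18 (0.89, adjusted p = 0.00129) and EPCAM (0.66, adjusted p = 0.0016) were higher. VIM was lower there (-0.46, adjusted p = 0.00187). The part of this difference between the lines in the results was not tested. Of 9 markers of immune, endothelial and stromal cells, 5 were above 0 in every Ctrl library, 6 in every MLN, 4 in every shARF and 5 in every Both library. CD3E was at 0 in every Ctrl and MLN library and ITGAM was at 0 in every MLN and Both library. Their summed level was 19.0 to 21.7 TPM in Ctrl and 22.4 to 24.4 in MLN, against 10.7 to 12.6 in shARF and 11.9 to 13.1 in Both, so it was lower in PC3-shp14ARF cells, as were several of the survival genes, and its part in the results was not tested. The list did not move one way: in shARF vs Ctrl the endothelial gene PECAM1 fell (11.7 to 1.91 TPM, adjusted p = 5.11e-05), while the stromal collagen gene COL3A1 rose (0.525 to 5.28 TPM, adjusted p = 0.000514). In MLN vs Ctrl, 5 of the 9 were tested, with 3 higher and 1 lower. PECAM1 fell to 0.579 TPM (log2 -4.13, adjusted p = 1.02e-05). COL1A1 (1.315, adjusted p = 0.000124), COL3A1 (2.50, adjusted p = 0.000213) and the leukocyte gene PTPRC (1.62, adjusted p = 0.00449) rose, PTPRC only to 0.268 TPM. In Both vs shARF, 2 were higher and 1 lower, with PECAM1 again the faller (-2.89, adjusted p = 4.85e-05). A TPM value is a share of the library's RNA, and in bulk samples fewer cells of a type and less RNA per cell cannot be told apart.

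The promoters are shown because a kB site is what the members' common name refers to. The kB consensus (10 letters) was searched on both strands in RefSeq windows of GRCh38.p14 that run from 250 bases before to 50 bases after each start. It was found in 2075 of 35116 windows (5.91%), or 1937 of 27305 genes (7.09%). All 8 members had windows, 16 in all, and 3 windows of 3 members (BIRC3, CFLAR and BCL3) held the consensus. In BIRC3 there were 2 matches on the opposite strand, at 199 to 190 and at 135 to 126 bases before the start. In CFLAR the match lay 97 to 88 bases before the first of its listed starts, and in BCL3 it lay at bases 3 to 12 after the start on the opposite strand. These RefSeq starts are not the GENCODE gene starts. Both matches, at chr2:201118619-201118628 and chr19:44748710-44748719, lie inside the annotated genes, which start at 201116154 (CFLAR) and 44747705 (BCL3). Letters that match are no evidence of binding, and windows without a match say nothing of sites elsewhere. The sequences below run 5′ to 3′ on the gene's strand, with the matches in capitals. BIRC2 is given as the neighbour and closest relative of BIRC3, and BCL2A1 as the member with the widest range of levels, and neither held a match.
BIRC3, plus strand, chr11:102317234-102317483: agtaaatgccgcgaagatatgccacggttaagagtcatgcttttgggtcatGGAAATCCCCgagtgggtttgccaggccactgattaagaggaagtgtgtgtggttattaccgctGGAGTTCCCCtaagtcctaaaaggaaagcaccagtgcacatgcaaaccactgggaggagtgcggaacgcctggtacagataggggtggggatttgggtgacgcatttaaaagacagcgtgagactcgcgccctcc
BIRC2, plus strand, chr11:102346964-102347210: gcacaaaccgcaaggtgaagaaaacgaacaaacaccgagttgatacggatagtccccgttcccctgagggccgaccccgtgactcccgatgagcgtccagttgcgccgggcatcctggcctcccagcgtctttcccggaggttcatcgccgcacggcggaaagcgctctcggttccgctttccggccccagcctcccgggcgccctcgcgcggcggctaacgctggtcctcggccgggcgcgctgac
BCL2A1, minus strand, chr15:79971197-79971446: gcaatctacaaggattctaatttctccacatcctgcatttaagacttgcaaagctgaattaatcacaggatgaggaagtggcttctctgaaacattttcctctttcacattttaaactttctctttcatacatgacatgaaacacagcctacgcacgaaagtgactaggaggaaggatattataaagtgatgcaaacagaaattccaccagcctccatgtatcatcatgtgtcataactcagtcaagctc
CFLAR, plus strand, chr2:201118609-201118638: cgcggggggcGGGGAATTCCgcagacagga
BCL3, plus strand, chr19:44748700-44748729: ccggctgcagGGGAAGTCCCggcgcccggc

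The survival genes did not move as a block. With MLN4924, CFLAR rose by a similar amount in both lines, BCL2A1 rose in both but far more in PC3-shp14ARF cells, and BIRC2 rose in both by smaller amounts. Depletion of p14ARF in DMSO went with a fall of BCL2A1 to 4.85 TPM and of BIRC3 to 1.02 TPM, and BIRC3 stayed there with MLN4924 while BCL2A1 came back to the range of Ctrl. TRAF1 and BCL3 were called in PC3 cells, TRAF1 higher and BCL3 lower with MLN4924, and not in PC3-shp14ARF cells.

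**Figure D1:**
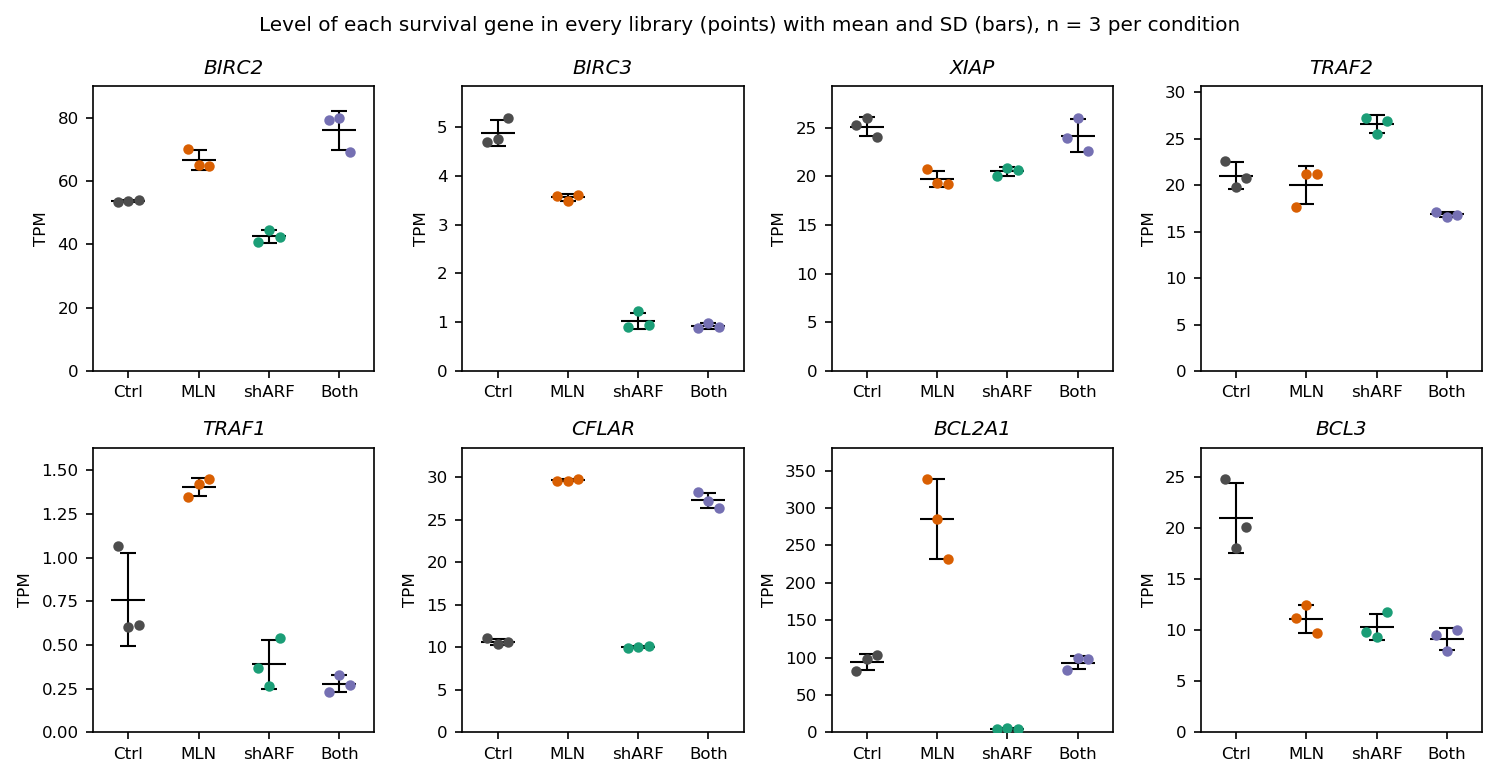
Level of the 8 survival genes in TPM (vertical axis, from 0) in each library (points) of the 4 conditions (horizontal axis), with the mean and SD of 3 libraries (bars). BCL2A1 spans 4.85 to 285 TPM between condition means, CFLAR is high with MLN4924 in both lines, and BIRC3 is low in both conditions of PC3-shp14ARF cells.

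BIRC3 encodes cIAP2, a RING ubiquitin ligase that binds TRAF2 at TNF receptors, and is a textbook NF-kB target. It lies on the plus strand at chr11:102317484-102339403 (GRCh38, GENCODE). In Ctrl its 3 libraries had 4.70, 4.76 and 5.19 TPM, and in MLN they had 3.59, 3.48 and 3.61. In shARF they had 0.900, 1.22 and 0.950 TPM, and in Both 0.876, 0.990 and 0.894. Every PC3 library was above every PC3-shp14ARF library, every Ctrl library was above every MLN library, and the shARF and Both libraries overlapped.

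The fall of BIRC3 in shARF vs Ctrl was -2.16 on the log2 scale (SE 0.14, 95% interval -2.52 to -1.80, adjusted p = 0.000392), 4.46-fold on TPM + 0.1. With MLN4924 present the gap between the lines was -1.85 (SE 0.12, adjusted p = 0.000532). In PC3 cells MLN4924 lowered BIRC3 by a smaller amount, -0.44 (SE 0.089, adjusted p = 0.00567). In PC3-shp14ARF cells the change was -0.13 (95% interval -0.56 to 0.30, adjusted p = 0.546), which did not pass. The responses of the 2 lines differed by 0.31 (95% interval -0.12 to 0.75, adjusted p = 0.272), so a difference between them was not shown.

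BIRC2 encodes cIAP1, the close relative of cIAP2, and starts 7807 bases beyond the end of BIRC3, at chr11:102347211-102378670 on the same strand. It was present at 53.3 to 54.0 TPM in Ctrl and 64.9 to 70.2 in MLN, against 40.7 to 44.7 in shARF and 69.1 to 80.1 in Both. The libraries with MLN4924 were above those with DMSO in either line, and the MLN and Both libraries overlapped. BIRC2 rose with MLN4924 by 0.31 in PC3 (SE 0.046, adjusted p = 0.00158) and by 0.84 in PC3-shp14ARF cells (SE 0.071, adjusted p = 0.000158), and these responses differed (0.52, SE 0.091, adjusted p = 0.00123). In DMSO it was lower in the depleted line (-0.33, SE 0.039, adjusted p = 0.00216). Both vs MLN did not pass (0.19, 95% interval 0.0075 to 0.37, adjusted p = 0.103). That comparison passed with median-of-ratios scaling (adjusted p = 0.023), with the 12 libraries in one fit (0.0348) and without Both replicate 4 (0.032).

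The neighbouring cIAP genes thus had different patterns. Per 100 TPM of BIRC2 there were 9.10 ± 0.446 TPM of BIRC3 in Ctrl and 5.34 ± 0.227 in MLN, against 2.40 ± 0.290 in shARF and 1.21 ± 0.0956 in Both (SD, n = 3). No library of one condition overlapped another in this ratio. On the other side of BIRC3, 84.1 kb away, YAP1 changed by -0.71 in MLN vs Ctrl (adjusted p = 5.65e-05) and -0.41 in shARF vs Ctrl (adjusted p = 0.00107). Beyond BIRC2, TMEM123 changed by -0.59 (adjusted p = 7.67e-05) and 0.35 (adjusted p = 0.00443) in these comparisons, so the genes on this stretch did not share a direction.

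XIAP encodes the IAP that binds and blocks caspases directly, and lies at chrX:123859712-123913972 on the plus strand. It moved least of the 8, between 24.0 and 26.0 TPM in Ctrl and 19.2 and 20.7 in MLN, against 20.0 and 20.8 in shARF and 22.6 and 25.9 in Both. The Ctrl and Both libraries overlapped, and so did those of MLN and shARF. MLN4924 lowered XIAP in PC3 (-0.35, SE 0.057, adjusted p = 0.00242) and raised it in PC3-shp14ARF cells (0.23, SE 0.060, adjusted p = 0.0166), with a difference between the responses of 0.58 (SE 0.091, adjusted p = 0.000602). The rise in PC3-shp14ARF cells did not pass without shARF replicate 1 (adjusted p = 0.0612). In DMSO, XIAP was lower in the depleted line (-0.29, SE 0.040, adjusted p = 0.00368), and with MLN4924 it was higher there (0.29, SE 0.070, adjusted p = 0.0251). The latter call was lost without MLN replicate 2 (0.086) or 5 (0.0755) and without Both replicate 3 (0.0561) or 2 (0.0762). The antisense gene XIAP-AS1 and the XIAP-like BIRC8 were listed at 0 in all libraries.

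BIRC2 made up most of the summed TPM of BIRC2, BIRC3 and XIAP in every condition. Its share was 64.1% ± 0.697 in Ctrl and 66.4% ± 0.492 in shARF, and 74.1% ± 0.162 in MLN and 75.2% ± 0.830 in Both (SD, n = 3). The share was thus higher with MLN4924 in either line, without overlap of libraries.

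TRAF2 encodes the adaptor that brings the cIAPs to TNF receptors, at chr9:136881912-136926607 on the plus strand. It had 19.8 to 22.6 TPM in Ctrl and 17.7 to 21.2 in MLN, against 25.5 to 27.3 in shARF and 16.6 to 17.1 in Both. The Both libraries were the lowest and the shARF libraries the highest, without overlap with the rest, while Ctrl and MLN overlapped. In PC3 cells the change with MLN4924 was -0.072 (95% interval -0.30 to 0.16, adjusted p = 0.54), which turned to 0.015 without MLN replicate 1. In PC3-shp14ARF cells TRAF2 fell by 0.65 on the log2 scale (SE 0.044, adjusted p = 6.27e-05), and the responses differed by -0.58 (SE 0.11, adjusted p = 0.00222). In DMSO it was higher in the depleted line (0.34, SE 0.060, adjusted p = 0.00899). Both vs MLN was -0.24 (adjusted p = 0.0766), and it passed without MLN replicate 1 (0.0104) and in the fit of 12 libraries (0.0273).

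TRAF1 encodes a TRAF without a RING domain that pairs with TRAF2, and is a known NF-kB target. It lies at chr9:120902393-120929173 on the minus strand. Its level was low, with 1.07, 0.603 and 0.612 TPM in Ctrl and 1.35, 1.42 and 1.45 in MLN. In shARF the libraries had 0.366, 0.265 and 0.541 TPM, and in Both 0.232, 0.330 and 0.272. The MLN libraries were above all others, Ctrl replicate 1 stood apart from the other two, and shARF and Both overlapped.

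TRAF1 was 4.01-fold lower on TPM + 0.1 in Both than in MLN (log2 -2.003, SE 0.18, 95% interval -2.44 to -1.56, adjusted p = 0.0012). With a pseudocount of 1 that value was -0.91 (adjusted p = 0.00054), since the gene is near the pseudocount. TRAF1 rose with MLN4924 in PC3 cells by 0.85 (SE 0.24, adjusted p = 0.0231), or by 0.46 with a pseudocount of 1 (adjusted p = 0.0147). This call was lost on leaving out MLN replicate 1, 2 or 5 or Ctrl replicate 2 or 3 (adjusted p 0.0568 to 0.0727). In PC3-shp14ARF cells the change was -0.35 (95% interval -1.02 to 0.32, adjusted p = 0.314), and in shARF vs Ctrl it was -0.81 (95% interval -1.60 to -0.0087, adjusted p = 0.0982), neither of which passed. The latter passed in the fit of 12 libraries (adjusted p = 0.036). The responses differed by -1.20 (SE 0.40, adjusted p = 0.0407), a call that 12 of 18 alternatives lost (adjusted p 0.0168 to 0.386 over all of them). Among these, it was lost on leaving out MLN replicate 1, 2 or 5, Both replicate 2 or 4, Ctrl replicate 2 or 3, or shARF replicate 1 or 5 (adjusted p 0.059 to 0.0952).

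Per 100 TPM of TRAF2 there were 3.57 ± 0.990 TPM of TRAF1 in Ctrl and 7.05 ± 0.506 in MLN, against 1.46 ± 0.496 in shARF and 1.65 ± 0.315 in Both (SD, n = 3). The ratio was highest in the MLN libraries and lowest in PC3-shp14ARF cells, where shARF and Both overlapped. Next to TRAF1, 3.81 kb away, the complement gene C5 went the other way, with -1.19 in MLN vs Ctrl (adjusted p = 8.13e-05) and 1.60 in shARF vs Ctrl (adjusted p = 5.28e-05).

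CFLAR encodes c-FLIP, a caspase-8 relative without protease activity that is recruited with FADD and blocks caspase-8 at death receptors. It lies at chr2:201116154-201176687 on the plus strand. Its libraries had 11.05, 10.3 and 10.6 TPM in Ctrl, and 29.6, 29.5 and 29.8 in MLN. They had 9.89, 10.1 and 10.1 TPM in shARF, and 28.2, 27.1 and 26.4 in Both. The MLN4924 libraries of either line were far above the DMSO libraries, and the lines themselves lay close together, though without overlap. Every MLN library was above every Both library, and every Ctrl library was above every shARF library.

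CFLAR rose by 1.47 in MLN vs Ctrl (SE 0.049, 95% interval 1.35 to 1.59, adjusted p = 7.33e-06), 2.77-fold, and by 1.43 in Both vs shARF (SE 0.045, 95% interval 1.32 to 1.54, adjusted p = 4.77e-06), 2.70-fold. The difference between the responses was -0.035 (95% interval -0.20 to 0.13, adjusted p = 0.779), and its sign turned under median-of-ratios scaling. Between the lines in DMSO the value was -0.086 (95% interval -0.19 to 0.022, adjusted p = 0.167), and in Both vs MLN it was -0.12 (95% interval -0.23 to -0.0066, adjusted p = 0.0989). CFLAR-AS1, which lies in the gene on the opposite strand, had a mean of 0.128 TPM in Ctrl against 3.34 in MLN, and went from 0.0241 in shARF to 3.42 in Both. Its log2 changes were 3.99 (adjusted p = 0.000263) and 4.83 (adjusted p = 1.34e-05). Strandedness of the counting is not stated, so reads of CFLAR and CFLAR-AS1 cannot be told apart.

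CASP8, which encodes the caspase that c-FLIP blocks, changed far less, with 44.5 ± 1.6 TPM in Ctrl against 52.9 ± 2.0 in MLN (0.25, adjusted p = 0.00576) and 40.2 ± 2.0 in shARF against 41.6 ± 2.9 in Both (0.047, adjusted p = 0.57). Per 100 TPM of CASP8 there were 24.0 ± 0.573 TPM of CFLAR in Ctrl and 25.0 ± 1.48 in shARF, against 56.1 ± 2.10 in MLN and 65.7 ± 4.24 in Both (SD, n = 3). The next gene, CASP10, which encodes a relative of caspase-8, starts 6.18 kb beyond CFLAR. It did not pass in PC3 cells (0.0045, adjusted p = 0.977), rose with MLN4924 in PC3-shp14ARF cells (0.68, adjusted p = 0.00146) and was lower in shARF than in Ctrl (-1.31, adjusted p = 0.000368).

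BCL2A1 encodes BFL-1, a relative of BCL2 that binds the death effectors BIM, BID, PUMA, NOXA and BAK, and is a well-known NF-kB target. It lies at chr15:79960892-79971196 on the minus strand. In Ctrl its libraries had 82.5, 97.7 and 103.6 TPM, and in MLN 339, 285 and 231. In shARF they had 3.90, 6.56 and 4.08 TPM, and in Both 82.9, 98.9 and 98.0. The MLN libraries were the highest and the shARF libraries the lowest, while the Both libraries fell within the range of Ctrl.

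BCL2A1 was 19.6-fold lower in shARF than in Ctrl on TPM + 0.1 (log2 -4.29, SE 0.23, 95% interval -4.87 to -3.72, adjusted p = 0.000209). With MLN4924 it rose 2.99-fold in PC3 cells (1.58, SE 0.16, 95% interval 1.19 to 1.96, adjusted p = 0.000289) and 19.3-fold in PC3-shp14ARF cells (4.27, SE 0.21, 95% interval 3.76 to 4.79, adjusted p = 2.01e-05). The second response was larger by 2.69 on the log2 scale (SE 0.26, 95% interval 2.12 to 3.27, adjusted p = 1.92e-05). With MLN4924 the level was still lower in the depleted line, by -1.60 (SE 0.15, adjusted p = 0.00136).

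Among the anti-apoptotic family genes BCL2A1, BCL2, BCL2L1, BCL2L2 and MCL1, BCL2A1 made up 11.1% ± 1.68 of the summed TPM in Ctrl and 25.3% ± 5.06 in MLN, against 0.879% ± 0.274 in shARF and 10.9% ± 1.27 in Both (SD, n = 3). The share was below 1.2% in every shARF library and above 9% in every other library. ZFAND6, the nearest tested gene on the higher side, 88.4 kb away, changed by 0.33 in MLN vs Ctrl (adjusted p = 0.0089), 0.69 in Both vs shARF (adjusted p = 8.39e-05) and -0.17 in shARF vs Ctrl (adjusted p = 0.073), small values beside those of BCL2A1. On the lower side, the antisense RNA ST20-AS1 fell in PC3 cells with MLN4924 (-1.12, adjusted p = 0.000497), unlike BCL2A1. It was also lower in shARF than in Ctrl (-0.65, adjusted p = 0.00285), and its responses differed by 0.80 (adjusted p = 0.00613), both with the sign of BCL2A1.

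BCL3 encodes the nuclear IkB-like partner of p50 and p52, and lies at chr19:44747705-44760044 on the plus strand. Its libraries had 24.8, 18.1 and 20.1 TPM in Ctrl and 11.2, 12.5 and 9.72 in MLN. They had 9.81, 9.39 and 11.8 TPM in shARF, and 9.56, 7.96 and 10.0 in Both. Every Ctrl library was above all others, and the other 3 conditions overlapped in part.

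BCL3 was lower in MLN than in Ctrl (-0.90, SE 0.15, adjusted p = 0.00227) and lower in shARF than in Ctrl (-1.01, SE 0.15, adjusted p = 0.0048). The drug made no called difference once p14ARF was depleted (-0.17, 95% interval -0.48 to 0.14, adjusted p = 0.291), and neither did depletion once the drug was present (-0.28, 95% interval -0.60 to 0.041, adjusted p = 0.155). The responses differed by 0.73 (SE 0.20, adjusted p = 0.0149). Its neighbour BCAM, 49.0 kb away, was higher in MLN (1.51, adjusted p = 0.000264) and in shARF (2.14, adjusted p = 0.000146) than in Ctrl, the opposite direction.

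**Figure D2:**
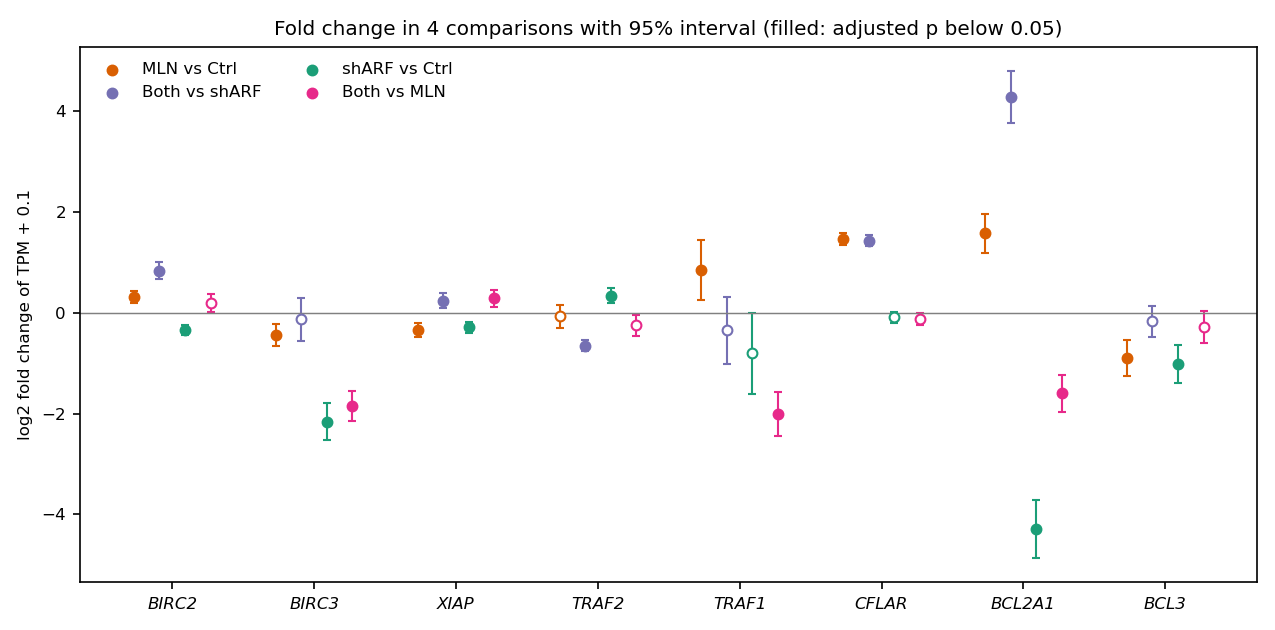
Log2 fold change on TPM + 0.1 (vertical axis) of the 8 survival genes (horizontal axis) in each pairwise comparison, with 95% intervals (bars) and filled points for an adjusted p below 0.05. BCL2A1 spans from -4.29 in shARF vs Ctrl to 4.27 in Both vs shARF, and CFLAR has values of 1.47 and 1.43 for MLN4924 and open points for depletion.

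Many of all tested genes were called too, so each count of members is given with the share of all tested genes called in that direction. In MLN vs Ctrl, 4 members were higher (BIRC2, CFLAR, TRAF1 and BCL2A1) against 32.2% of all genes, and 3 were lower (BIRC3, XIAP and BCL3) against 29.4%. In Both vs shARF, 4 were higher (BIRC2, XIAP, CFLAR and BCL2A1) against 28.3%, and TRAF2 alone was lower against 32.8%. In shARF vs Ctrl, TRAF2 alone was higher against 21.0%, and 5 were lower (BIRC2, BIRC3, XIAP, BCL2A1 and BCL3) against 20.4%. In Both vs MLN, XIAP alone was higher against 11.8%, and 3 were lower (BIRC3, TRAF1 and BCL2A1) against 20.6%. The median log2 change of the 8 was 0.12 against 0.052 over all tested genes in MLN vs Ctrl, 0.052 against -0.038 in Both vs shARF, -0.57 against 0 in shARF vs Ctrl and -0.26 against -0.080 in Both vs MLN.

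For the difference between the 2 responses to MLN4924, 4 members were above 0 (BIRC2, XIAP, BCL2A1 and BCL3) against 11.2% of all genes, and 2 were below 0 (TRAF1 and TRAF2) against 17.1%. The median difference was 0.42 over the 8 and -0.085 over all tested genes. BIRC3 and CFLAR did not pass. MLN vs Ctrl and shARF vs Ctrl share the Ctrl libraries, and Both vs shARF and Both vs MLN share the Both libraries. With opposite sign, shARF vs Ctrl and Both vs shARF share the shARF libraries, and MLN vs Ctrl and Both vs MLN the MLN libraries. These comparisons are thus not independent of each other. The BCL2A1 values of -4.29 and 4.27 both rest on the same shARF libraries.

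**Figure D3:**
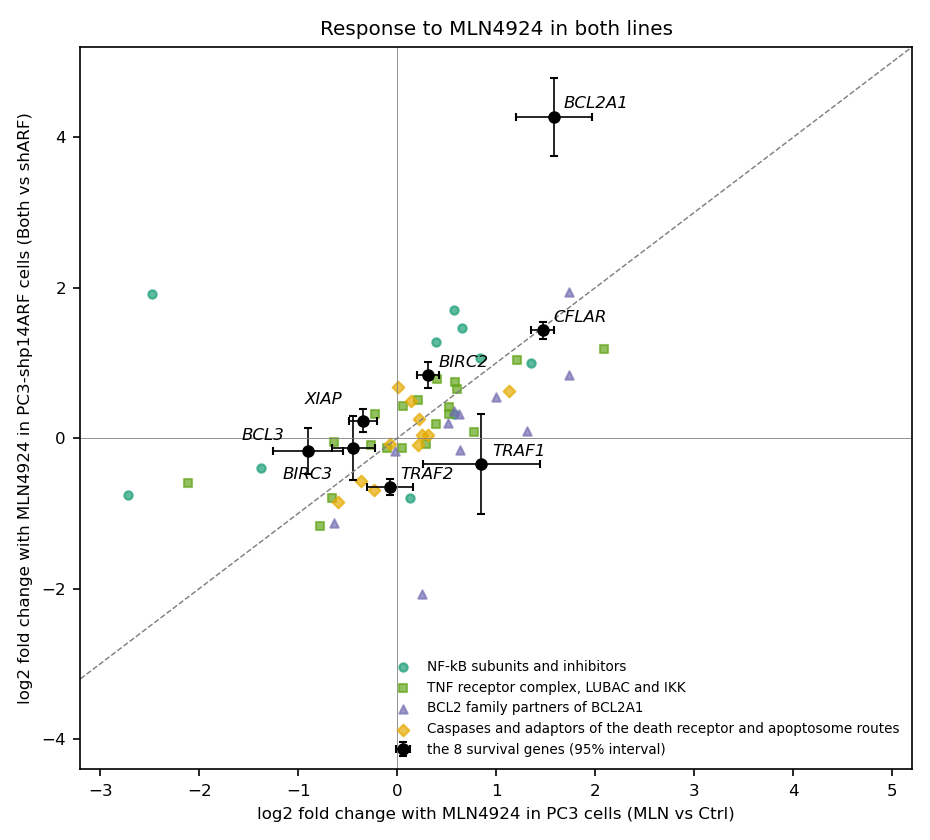
Log2 fold change with MLN4924 in PC3 cells (horizontal axis) and in PC3-shp14ARF cells (vertical axis) for the 8 survival genes (black, with 95% intervals) and 4 lists of pathway genes (coloured). The dashed line marks equal responses. CFLAR lies on it, BCL2A1 lies far above it at 1.58 and 4.27, and TRAF1 and TRAF2 lie below it.

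The members also differed in how widely they ranged. The range of the 4 condition means on log2(TPM + 0.1) was 5.87 for BCL2A1, wider than for 99.2% of tested genes, and 2.29 for BIRC3, wider than for 84.1%. It was 2.003 for TRAF1 (78.8%), 1.55 for CFLAR (66.8%), 1.18 for BCL3 (52.6%) and 0.84 for BIRC2 (35.8%). TRAF2 with 0.65 (25.2%) and XIAP with 0.35 (7.29%) were among the steadier genes. Measured as the root mean square distance between the centred condition means, BIRC2 and XIAP were the closest pair (0.318), BIRC3 was closer to TRAF1 (0.551) than to its neighbour BIRC2 (1.06), and TRAF2 and BCL2A1 were the farthest apart (2.37).

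By the same distance over the 4 condition means, the genes most like the 3 members with the widest ranges were sought among the 14663 genes that averaged 1 TPM or more. Nearest to BCL2A1 was SERPINB2 (0.203), which encodes an inhibitor of plasminogen activators, with means of 85.6, 376, 5.68 and 108 TPM (Ctrl, MLN, shARF, Both). The cytokine gene IL6 followed (0.239) with 4.44, 14.4, 0.177 and 3.26 TPM, and then the cytokine gene IL1A (0.335) with 11.3, 49.7, 0.567 and 20.6 TPM. Both of these cytokine genes, like BCL2A1, were highest in MLN and lowest in shARF.

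Nearest to BIRC3 were PDE4B (0.0534), which encodes a cAMP phosphodiesterase, with 2.34, 1.73, 0.496 and 0.444 TPM, ZBTB46 (0.0886) with 8.13, 6.02, 2.02 and 1.61 TPM, and TMEM150C (0.125) with 5.73, 4.25, 1.03 and 0.910 TPM. Nearest to TRAF1 were ARID3A (0.0475), which encodes a DNA-binding protein, with 2.98, 5.01, 1.52 and 1.13 TPM, the cytokine receptor gene IL22RA1 (0.127) with 7.74, 16.8, 4.31 and 3.96 TPM, and LINC00525 (0.130) with 1.67, 3.06, 1.06 and 0.998 TPM. A small distance over 4 means describes the pattern only.

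Counts in the gene lists below stand beside these shares of all tested genes called higher and lower. They were 32.2% and 29.4% in MLN vs Ctrl, and 28.3% and 32.8% in Both vs shARF. In shARF vs Ctrl they were 21.0% and 20.4%, and in Both vs MLN 11.8% and 20.6%. For the difference of the responses, 11.2% were above 0 and 17.1% below 0. No list was tested as a set. Of the other IAP genes and IAP antagonists, 7 of 9 were tested, of which 4 were higher and 3 lower in MLN vs Ctrl. The fallers were NAIP (-2.45, adjusted p = 4.90e-05), BIRC6 (-0.88, adjusted p = 0.000231) and BIRC5 (-0.69, adjusted p = 0.00157), which encodes survivin, a protein of dividing cells. The antagonist genes DIABLO (0.38, adjusted p = 0.00166), HTRA2 (0.39, adjusted p = 0.00533) and XAF1 (1.07, adjusted p = 0.0025), whose products bind XIAP, rose. The remaining riser was an IAP gene, BIRC7 (1.77, adjusted p = 0.0229), at low levels of 0.0963 TPM in Ctrl and 0.542 in MLN. In Both vs shARF, 1 was higher (HTRA2, 0.18, adjusted p = 0.0111) and 3 lower. DIABLO (0.083, adjusted p = 0.319) and XAF1 (0.036, adjusted p = 0.878) did not pass there. In shARF vs Ctrl, 5 were higher and 0 lower. The difference of the responses was below 0 for 3 of the list, among them XAF1 (-1.04, adjusted p = 0.00869). BIRC5 was 129 ± 11 TPM in Ctrl and 222 ± 7.1 in shARF (0.78, adjusted p = 0.000878), against the direction of BIRC2, BIRC3 and XIAP.

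Of the caspases and adaptors, 11 of 12 were tested, with 3 higher and 3 lower in MLN vs Ctrl and again 3 and 3 in Both vs shARF. RIPK1, whose product the cIAPs tag with ubiquitin, fell in both lines (-0.60, adjusted p = 0.000117, and -0.85, adjusted p = 1.95e-05). FADD, the adaptor that recruits c-FLIP, fell as well (-0.24, adjusted p = 0.00908, and -0.69, adjusted p = 7.91e-05). CASP9, whose product XIAP binds, did not pass in either line (0.22, adjusted p = 0.127, and 0.26, adjusted p = 0.0622). For shARF vs Ctrl, 1 of the list was higher and 5 were lower, and in Both vs MLN, 0 were higher and 7 lower.

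All 20 genes of the TNF receptor complex, LUBAC and IKK list were tested, of which 10 were higher and 5 lower in MLN vs Ctrl and 11 and 3 in Both vs shARF. MAP3K14, which encodes NIK, the kinase that TRAF2, TRAF3 and the cIAPs keep low, rose from 4.31 ± 0.33 to 18.8 ± 2.9 TPM in PC3 cells (2.09, adjusted p = 4.52e-05) and from 7.23 ± 0.52 to 16.6 ± 1.2 in PC3-shp14ARF cells (1.19, adjusted p = 7.78e-05). TRAF3, another partner in that complex, fell in PC3 cells (-0.64, adjusted p = 0.00131). TNIP1, which encodes a partner of A20, fell in MLN vs Ctrl (-2.12, adjusted p = 4.67e-05), in Both vs shARF (-0.60, adjusted p = 8.23e-05) and in shARF vs Ctrl (-2.45, adjusted p = 6.40e-05). After depletion in DMSO, 5 of the 20 were higher and 8 lower, and in Both vs MLN 1 and 3.

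All 10 NF-kB subunits and inhibitors were tested, of which 6 were higher and 3 lower in MLN vs Ctrl, and 7 and 3 in Both vs shARF. NFKB1, which encodes the p50 partner of BCL3, fell in PC3 cells from 30.3 ± 1.6 to 11.7 ± 1.1 TPM (-1.37, adjusted p = 4.18e-05), while NFKB2, which encodes p52, rose from 42.5 ± 4.4 to 75.8 ± 7.5 (0.83, adjusted p = 0.000755). The IkB genes NFKBIA (-2.72, adjusted p = 5.92e-06) and NFKBIZ (-2.48, adjusted p = 1.06e-05) also fell there. In PC3-shp14ARF cells NFKBIZ rose (1.92, adjusted p = 1.45e-05), from 10.5 ± 0.95 to 40.0 ± 2.7 TPM, as did RELB (1.46, adjusted p = 2.29e-05). Comparing shARF with Ctrl, 1 gene of this list was higher and 7 were lower, among them NFKBIZ (-4.00, adjusted p = 4.08e-05), NFKBIA (-2.36, adjusted p = 6.46e-05) and TNFAIP3, which encodes A20 (-3.41, adjusted p = 8.72e-05), and the response difference was above 0 for 6 of 10 and below 0 for 1.

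Of 10 other NF-kB-linked survival genes, 4 were higher and 2 lower in MLN vs Ctrl, 7 and 2 in Both vs shARF, 1 and 5 in shARF vs Ctrl, and 0 and 5 in Both vs MLN. CCND1 fell with MLN4924 in PC3 (-2.92, adjusted p = 2.78e-06) and in PC3-shp14ARF cells (-2.98, adjusted p = 6.68e-07). SOD2, the mitochondrial superoxide dismutase, had 76.4 ± 1.7 TPM in Ctrl and lower levels elsewhere, 28.3 ± 1.1 in MLN, 25.3 ± 0.56 in shARF and 31.3 ± 1.5 in Both. SERPINB2 and IER3 were the leading fallers in shARF vs Ctrl, with -3.89 and -2.10 (adjusted p = 1.11e-05 for each).

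In a list of other BCL2 family genes, 11 of 12 were tested, with 8 higher and 1 lower in MLN vs Ctrl and 5 and 3 in Both vs shARF. The list holds the anti-apoptotic genes BCL2, BCL2L2 and MCL1 beside pro-apoptotic genes, so its counts mix the 2 kinds. PMAIP1, which encodes NOXA, rose from 198 ± 8.7 to 658 ± 15 TPM in PC3 (1.74, adjusted p = 5.82e-06) and from 166 ± 2.5 to 639 ± 45 in PC3-shp14ARF cells (1.94, adjusted p = 4.30e-06). BAK1, whose product BFL-1 restrains, rose from 99.1 ± 1.7 to 331 ± 29 TPM in PC3 cells (1.73, adjusted p = 1.31e-05) and from 114 ± 3.7 to 205 ± 12 in PC3-shp14ARF cells (0.84, adjusted p = 5.58e-05). BID, whose product BFL-1 also binds, fell in both lines (-0.64, adjusted p = 0.000177, and -1.13, adjusted p = 3.13e-05). Comparing shARF with Ctrl, 7 were higher and 4 lower, among them MCL1 (-0.30, adjusted p = 0.00044), and in no gene of this list was the response difference called above 0, while 6 were below 0.

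Of the receptors and ligands that signal through TRAF2 and the cIAPs, 12 of 14 were tested, with 8 higher and 1 lower in MLN vs Ctrl and 6 and 2 in Both vs shARF. TNF rose from 2.12 ± 0.39 to 9.61 ± 0.57 TPM in PC3 cells (2.14, adjusted p = 7.12e-05), and TNFRSF12A, the receptor for TWEAK, from 154 ± 8.7 to 392 ± 52 (1.34, adjusted p = 0.000118). TNFSF12, which encodes TWEAK, fell in PC3 (-1.46, adjusted p = 0.000227) and in PC3-shp14ARF cells (-1.54, adjusted p = 1.33e-05). In shARF vs Ctrl, 0 were higher and 6 lower, among them TNF (-3.82, adjusted p = 0.000843) and the TRAIL receptor genes TNFRSF10B (-1.11, adjusted p = 7.02e-05) and TNFRSF10A (-0.41, adjusted p = 0.000605), and in Both vs MLN 0 were higher and 7 lower. TNF itself was at most 0.0947 TPM in shARF and 0.349 to 0.816 in Both.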

How the data were processed

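RNA was sequenced at BGI. In Qiagen CLC Genomics Workbench v23.0.5 the authors removed adapters and placed the reads on hg38 with the Ensembl GRCh38.112 annotation. What the authors deposited is TPM, for 43622 genes in 12 columns, each of which sums to 1000000, so depth per library is unknown, and with no counts no counting interval is given. Read length, layout and strandedness are not given in the sources used here. Columns were assigned to conditions by their names and the sample titles, and 0 columns were left over. No 2 columns were identical.

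From the TPM, log2(TPM + 0.1) was tested for 19932 genes (mean of at least 0.1 TPM over 12 libraries) by limma (version 3.58.1, R 4.3.3), with lmFit and a trended eBayes, two-sided, and Benjamini-Hochberg adjustment over all genes tested. Calls were made where the adjusted p was under 0.05. "Rose", "fell", "higher" and "lower" refer to such calls. Pairwise comparisons used the 6 libraries of the groups compared, and the difference of the responses, (Both minus shARF) minus (MLN minus Ctrl), used all 12. This scale understates changes of low genes. The script was tested on simulated data with known changes.

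The 8 members and the gene lists were chosen with earlier results of these data known. Named besides them are CDKN2A, the 3 genes nearest in pattern to the 3 members with the widest ranges, the nearest tested genes on either side, and from each list the 2 with the smallest adjusted p in a comparison described plus genes whose products bind a member. PECAM1, COL1A1, COL3A1, PTPRC, TNFAIP3, BIRC7 and, in shARF vs Ctrl, TNF were named after their values were seen. The changes of KRT8, KRT18, EPCAM and VIM were also added then. Coordinates are from GENCODE v44 on GRCh38, another release than the authors' annotation, and promoter sequences from RefSeq on GRCh38.p14. SEPTIN4 was matched through an older symbol, SEPT4. The alternatives were a pseudocount of 0.01 or 1, the filter raised to 1 TPM or dropped, scaling by median-of-ratios, eBayes without trend, 12 libraries in one fit, a replicate block and each library left out in turn. The authors' own DESeq2 results and the other experiments of the study were not used here. The values of some genes in the lists are not reported here.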

Additional observations from a re-analysis of the deposited data

Results flagged for a closer look

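For 6 of the 8 survival genes the response to MLN4924 differed between PC3-shp14ARF and PC3 cells by the test of the difference itself (limma over the 12 libraries, adjusted over all genes tested). Of all tested genes, 11.2% had a called difference above 0 and 17.1% below 0. BCL2A1 had the largest difference, 2.69 on the log2 scale (adjusted p = 1.92e-05), a rise in either line that was larger after depletion of p14ARF. BCL3 differed by 0.73 (adjusted p = 0.0149), a fall in PC3 cells and no called change in PC3-shp14ARF cells. XIAP differed by 0.58 (adjusted p = 0.000602), with called changes in opposite directions. BIRC2 differed by 0.52 (adjusted p = 0.00123), a rise in both lines. TRAF2 differed by -0.58 (adjusted p = 0.00222), with a called fall in PC3-shp14ARF cells. TRAF1 differed by -1.20 (adjusted p = 0.0407), and most of its alternatives lost that call.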

How the results depend on the processing

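Of 579 values recomputed for the 8 genes, 535 kept their direction and their side of the threshold, 35 no longer passed, 6 newly passed and 3 changed sign. TRAF2 in MLN vs Ctrl became 0.015 without MLN replicate 1 (adjusted p = 0.872; -0.12 to 0.015 over the libraries left out), and the difference of responses of CFLAR became 0.064 with median-of-ratios scaling (adjusted p = 0.523) and 0.015 with a replicate block (adjusted p = 0.946); none of the 3 was called before or after. The cause was not tested. Leaving out 1 library in turn gave 4005 to 5731 genes called in Both vs MLN, against 6464 with all libraries, with 4005 without MLN replicate 2 and 4199 without Both replicate 2.

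The numbers in the column names are shared only in part between conditions, and same-numbered libraries did not deviate together (correlations of -0.0457 to 0.00722), so they were not treated as pairs. With the replicate number as a block, which kept 4 libraries in MLN vs Ctrl and in shARF vs Ctrl and 11 in the response difference, 2 members (CFLAR and BCL2A1) and 5702 genes were called in MLN vs Ctrl. In shARF vs Ctrl 0 members and 0 genes were called by limma, with 7 members and 7752 genes at an unadjusted p below 0.05. For the response difference it was 3 members (BIRC2, XIAP and BCL2A1) and 3095 genes. No paired analysis was possible for Both vs shARF and Both vs MLN because each shares 1 number. TPM hold no depth, so the precision of low genes such as TRAF1 and BIRC3 rests on 3 libraries alone.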
